A study of Mus musculus with 8 samples.

Results

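The 9 genes described here encode the ligands, receptor chains, transcription factor and feedback inhibitors of IL-13 and IL-4 signalling. The set is a list of gene names (Il13, Il4, Il4ra, Il13ra1, Il13ra2, Il2rg, Stat6, Socs1 and Cish) drawn up with earlier results of these data known, and no measured value enters its rule. All 9 were found among the 49315 gene identifiers of the deposited table, and all 9 passed the filter on low counts. RNA of the whole esophagus was sequenced in 8 male mice at 8 weeks of age. EoE33 mice (n = 4) carry a transgene that overexpresses IL-33, an alarmin cytokine, in the epithelium of the esophagus, and their wild type littermates (n = 4) served as controls. The series concerns eosinophilic esophagitis, an allergic inflammation of the esophagus, and its dependence on IL-13. The labels give C57BL/6J as the strain of both groups. The promoter of the transgene is not given in the sources used here, and counts per gene do not separate its transcripts from those of the mouse's own Il33 gene.

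IL-4 and IL-13 are related cytokines made mainly by Th2 cells, group 2 innate lymphoid cells, basophils and mast cells. Both signal through the IL-4 receptor alpha chain, the product of Il4ra. Paired with the common gamma chain, the product of Il2rg, it forms the type I receptor, which binds IL-4 and is typical of leukocytes. Paired with the product of Il13ra1 it forms the type II receptor, which binds IL-4 and IL-13 and is present on epithelium, fibroblasts and smooth muscle. JAK kinases bound to these chains phosphorylate STAT6, which enters the nucleus and activates its target genes. The product of Il13ra2 binds IL-13 tightly and has a short cytoplasmic tail, and is known as a decoy receptor. SOCS1 and CISH are inhibitors that cytokine signals induce and that dampen JAK and STAT signalling. In esophageal epithelium IL-13 is known for inducing eotaxins and for disturbing differentiation.

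Il13 and Il4 are neighbours, but in these libraries only 1 of the 2 passed the test, and Il4ra and Il13ra2 were the receptor genes with the largest fold changes. Their start regions are therefore shown, with that of Cish, the member whose window held the most STAT-type palindromes. Each stretch runs from 250 bases before a RefSeq transcript start to 30 bases after it (GRCm38.p6), 5′ to 3′ on the gene's strand. Capitals mark TTC and GAA with 4 bases between them, the spacing that STAT6 prefers, or with 3 bases between them, the general STAT palindrome. Both motifs read the same on either strand, and no match of one overlapped a match of the other.
Il13, chr11:53634673-53634952, minus strand: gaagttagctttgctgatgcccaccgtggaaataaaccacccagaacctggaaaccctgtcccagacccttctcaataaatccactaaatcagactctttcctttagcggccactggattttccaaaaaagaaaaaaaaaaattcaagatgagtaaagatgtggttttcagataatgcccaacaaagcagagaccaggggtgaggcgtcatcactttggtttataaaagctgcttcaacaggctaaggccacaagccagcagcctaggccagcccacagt
Il4, chr11:53618636-53618915, minus strand: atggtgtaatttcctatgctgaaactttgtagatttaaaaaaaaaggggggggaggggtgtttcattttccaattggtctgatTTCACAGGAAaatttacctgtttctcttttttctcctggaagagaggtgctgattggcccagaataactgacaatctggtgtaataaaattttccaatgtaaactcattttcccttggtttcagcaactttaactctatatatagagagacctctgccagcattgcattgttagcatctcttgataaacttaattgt
Il4ra, chr7:125552021-125552300, plus strand: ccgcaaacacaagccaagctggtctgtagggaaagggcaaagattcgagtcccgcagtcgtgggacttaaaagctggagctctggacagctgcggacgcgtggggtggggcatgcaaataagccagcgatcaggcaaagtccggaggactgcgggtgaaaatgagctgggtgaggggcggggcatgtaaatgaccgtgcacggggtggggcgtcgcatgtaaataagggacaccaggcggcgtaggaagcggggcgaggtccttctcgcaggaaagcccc
Il13ra2, chrX:147429163-147429442, minus strand: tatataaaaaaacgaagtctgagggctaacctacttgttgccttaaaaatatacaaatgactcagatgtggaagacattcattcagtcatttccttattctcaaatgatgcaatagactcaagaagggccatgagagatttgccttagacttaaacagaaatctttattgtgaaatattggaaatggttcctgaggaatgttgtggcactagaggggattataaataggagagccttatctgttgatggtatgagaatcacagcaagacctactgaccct
Cish, chr9:107296409-107296688, plus strand: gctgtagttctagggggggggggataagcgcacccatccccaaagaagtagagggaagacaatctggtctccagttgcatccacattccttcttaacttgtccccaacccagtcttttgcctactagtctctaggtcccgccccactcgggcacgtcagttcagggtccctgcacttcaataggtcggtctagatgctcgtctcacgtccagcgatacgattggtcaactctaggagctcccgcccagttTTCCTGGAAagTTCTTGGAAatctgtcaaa

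All 9 members had an entry in the promoter table, with 10 windows of 300 bases in all, since Il4 has 2 starts there. The motif with 4 bases in the gap was in 1 of the 10 windows, that of Il4 shown above, where it begins 167 bases before the start. Of the 32851 windows of this length in the table, 6.95% hold it. The motif with 3 bases in the gap was in 2 of the 10 windows, against 8.30% of all windows. The Cish window held it at 2 places, beginning at base 1 and base 12 of the transcript, and the other match, TTCATGGAA, began 4 bases before the other Il4 start in the table. The windows of the other 7 members held neither set of letters. Gene positions in GRCm38 place Il13 on chromosome 11 from 53631324 to 53634702 and Il4 from 53602982 to 53618669, on the same strand with 12654 bases between them. Il4ra lies on chromosome 7 from 125552120 to 125579474, Stat6 on chromosome 10 from 127642986 to 127660957, Socs1 on chromosome 16 from 10782240 to 10785536 and Cish on chromosome 9 from 107296026 to 107302784. On the X chromosome, Il13ra1 spans 36112110 to 36171259, Il2rg 101264378 to 101268255 and Il13ra2 147383476 to 147429192.

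The libraries held 17.73 to 24.07 (in 1e6) counts. Il33 was at 129 ± 27.0 counts per 1e6 counts (CPM) in wild type against 371 ± 16.1 CPM in EoE33 (SD, n = 4 each), with no overlap between groups. The suprabasal esophageal keratinocyte markers Krt4, Krt13, Krt78 and Tgm3 defined the tissue and summed to at least 14295 CPM in each library. Some wild type libraries stood apart: the liver markers Alb, Apoa1 and Ttr summed to 126 CPM in wild type replicate 1 and to 3.59 to 9.55 CPM in the other 3. The airway markers Scgb1a1, Bpifa1 and Foxj1 summed to 994 CPM in wild type replicate 3 and to 6.42 to 6.95 CPM in the other 3. In wild type replicate 4 the T cell markers summed to 10.99 CPM, against 2.19 to 3.0 CPM in the other wild type libraries. Bulk libraries of whole tissue do not tell a change in the number of cells of a type from a change in RNA per cell.

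Across the 9 members, 6 were higher in EoE33, none was lower and 3 did not pass an adjusted p of 0.05 (edgeR quasi-likelihood test, adjusted over 16760 genes). Of all genes tested, 63.4% passed in either direction, 31.3% as higher and 32.1% as lower. The members that rose were Il13, Il4ra, Il13ra1, Il13ra2, Il2rg and Socs1, and those that did not pass were Il4, Stat6 and Cish. Il13 and Il13ra2, with 4 and 6 counts over the wild type libraries, passed the filter on low counts only through EoE33. For them a rise was the only call possible. For each of the 6 that rose, the lowest EoE33 library exceeded the highest wild type library. That held for 29.6% of genes tested, the reverse for 29.9%, and 59.5% did not overlap in either direction. The median log2 fold change of the 9 was 1.41, beside -0.01 over all genes tested. Without wild type replicates 1 and 3 together the number was again 6, with Cish in and Il2rg out. It was 5, with Il2rg out, without wild type replicate 1 and with no filter on low counts. It was 7, with Cish in, under DESeq2, limma-voom and robust = FALSE, and without wild type replicate 3 or EoE33 replicate 2. With library sizes that leave out Chil4 it was 8, with Stat6 and Cish in.

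**Figure D1:**
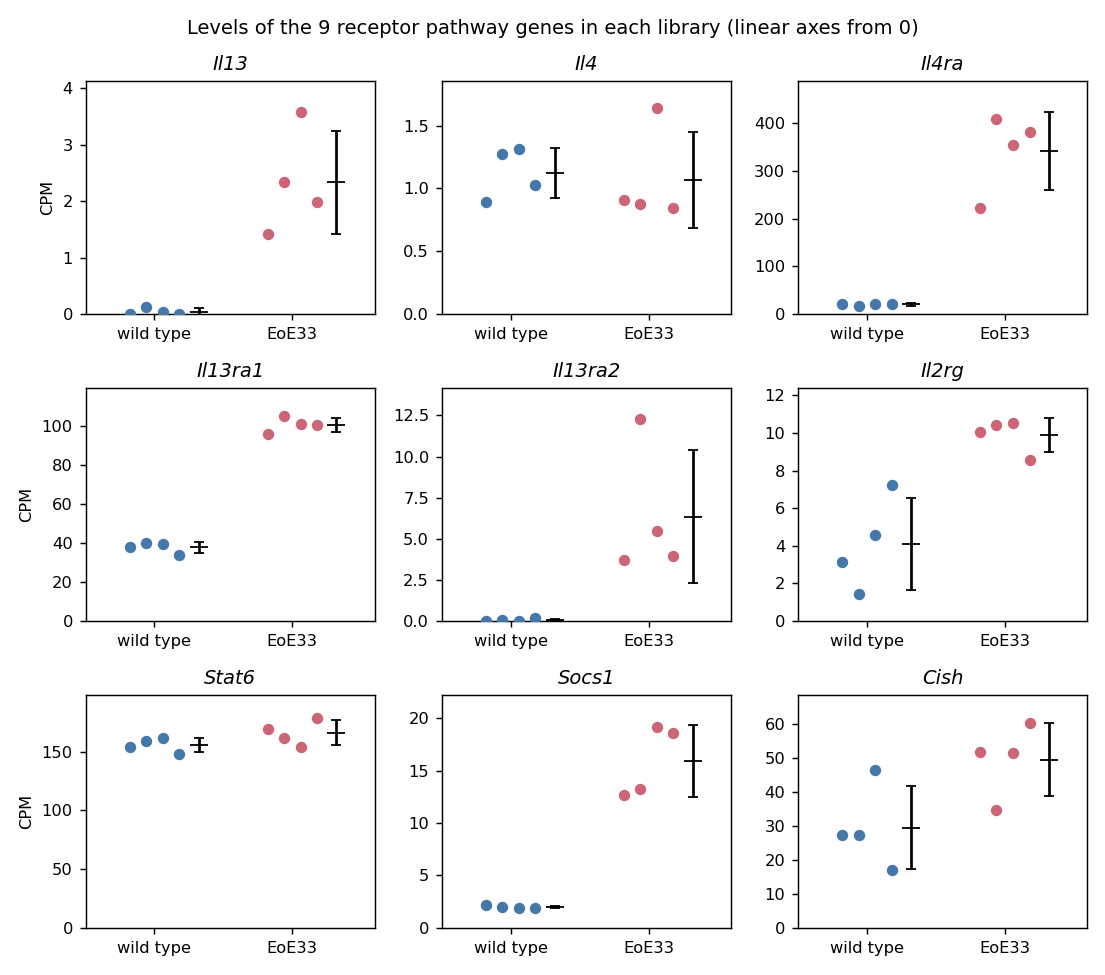
Level of each of the 9 genes in CPM (linear axes from 0), one point per library (replicates 1 to 4 from left to right), with the mean and SD of the 4 libraries in black. The wild type and EoE33 points are apart for Il13, Il4ra, Il13ra1, Il13ra2, Il2rg and Socs1 and overlap for Il4, Stat6 and Cish.

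Of the ligands, Il13 rose and Il4 did not pass the test. Il13 had 0, 3, 1 and 0 counts in wild type replicates 1 to 4 and 30, 40, 83 and 40 counts in EoE33 replicates 1 to 4. Every EoE33 library was thus well above every wild type library, and EoE33 replicate 3 was the highest. The levels were 0.0435 ± 0.0620 CPM in wild type against 2.33 ± 0.908 CPM in EoE33 (SD, n = 4 each). The log2 fold change was 5.59 (SE 0.63, edgeR adjusted p = 6.17e-05), place 136 among the 16760 genes from the largest rise down. It rests on 4 counts in wild type and was 6.89 without wild type replicate 2, which holds 3 of them.

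Il4 had 21, 29, 31 and 24 counts in the wild type libraries and 19, 15, 38 and 17 in the EoE33 libraries. The groups overlapped: EoE33 replicate 3 was the highest of all 8 libraries and the other 3 EoE33 libraries lay near or below the lowest wild type library. The levels were 1.12 ± 0.201 CPM in wild type against 1.07 ± 0.381 CPM in EoE33 (SD, n = 4 each), with a log2 fold change of -0.06 (95% interval -0.69 to 0.57, edgeR adjusted p = 0.856). The interval leaves room for a change of either sign, and without EoE33 replicate 3 the value was -0.35. Il4 in wild type was well above 0 where Il13 was near 0, so by counts the order of the pair differed between the groups. Per exon length, Il13 was at 0, 0.105, 0.0328 and 0 times the level of Il4 in wild type replicates 1 to 4. In EoE33 replicates 1 to 4 it was at 1.61, 2.72, 2.22 and 2.40 times that level. Exon length here counts every annotated exon base of a gene once, 1205 bases for Il13 and 1227 for Il4. The longest transcript has 1205 bases for Il13 but 605 for Il4, so the ratios would be lower with transcript lengths. Their side of 1 in EoE33 can depend on this choice. The log2 ratio of Il13 to Il4 counts, with 0.5 added to each, rose from -4.63 ± 1.17 to 1.09 ± 0.316 (SD, n = 4 each; exact permutation p = 0.0286, adjusted p = 0.0357 over 5 ratios). This p is the smallest that the 70 orderings of 4 against 4 libraries can give, and it is two-sided. With 2 wild type libraries at 0 counts of Il13, the difference of 5.72 depends on the value added: it was 7.03 with 0.1 added and 4.37 with 2 added, with the same p.

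Other genes of the locus on chromosome 11 were tested beside the ligands. Il5, the eosinophil growth factor of the same locus, did not pass and was at 0.867 ± 0.252 CPM in wild type against 0.850 ± 0.155 CPM in EoE33 (SD, n = 4 each). Rad50, a DNA repair gene that lies between Il5 and Il13, rose 1.37-fold. Kif3a, a kinesin gene beyond Il4, fell by 0.32 on the log2 scale, and Irf1, an interferon response factor gene beyond Il5, rose 3.06-fold (edgeR adjusted p = 0.00217, 0.00746 and 1.46e-05). Of these 4 neighbours 2 rose and 1 fell, where 63.4% of all genes tested were called.

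Known sources of IL-13 were measured through their markers. Over all genes tested, 31.3% rose and 32.1% fell. Of 7 markers of group 2 innate lymphoid and Th2 cells, 4 rose and 2 fell. Klrg1 and Icos, present on activated lymphocytes, rose 13.04-fold and 10.3-fold, and Rora and Thy1, which were also high in wild type, fell by 1.70 and 0.75 on the log2 scale. The summed level of the 7 lay between 138 and 161 CPM in wild type and between 78.3 and 102 CPM in EoE33. Of 7 T cell markers 3 rose (Cd3g, Trac and Trbc2), and the summed level lay between 2.19 and 10.99 CPM in wild type and between 9.12 and 14.3 CPM in EoE33. The number was 1 (Cd3g) without wild type replicate 1 or 3 or EoE33 replicate 3, and 6 without wild type replicate 4, and the other fits without 1 library gave 2 or 3. Of 5 basophil markers 4 were tested and 2 rose (Ms4a2 and Cd200r3), with summed levels of 4.82 to 8.68 CPM in wild type and 5.32 to 9.74 CPM in EoE33. Only Ms4a2 was called without wild type replicate 1 or 2 or EoE33 replicate 1 or 3. Fcer1a and Gata2 did not pass, with log2 fold changes of -0.25 and -0.12, and Mcpt8, a basophil protease gene, was not tested, with 0 counts in wild type and 31 over the EoE33 libraries. Of 5 mast cell markers 3 rose (Cma1, Cpa3 and Tpsb2), with summed levels of 18.4 to 67.8 CPM in wild type and 61.6 to 125 CPM in EoE33. The number was 1 (Cma1) without wild type replicate 1, 2 or 3 or EoE33 replicate 3 or 4, 2 without EoE33 replicate 1, and 5 without wild type replicate 4. The part of any of these cells in the level of Il13 was not tested.

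The receptor chain genes all rose, and by very different amounts. Il4ra was at 22.3, 16.6, 20.96 and 22.4 CPM in wild type replicates 1 to 4 and at 223, 408, 353 and 381 CPM in EoE33 replicates 1 to 4. The groups were far apart, with EoE33 replicate 1 the lowest of its group. The means were 20.6 ± 2.70 and 341 ± 81.8 CPM (SD, n = 4 each), a 16.6-fold rise (log2 fold change 4.05 ± 0.21 SE; edgeR adjusted p = 1.26e-06). Leaving out each library in turn kept the log2 fold change between 3.96 and 4.21. Il4ra shares 571 exon bases with Gm44876 on the opposite strand, which had 13 counts over the 8 libraries.

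Il13ra1, the chain that completes the type II receptor, was at 37.7, 39.9, 39.3 and 34.0 CPM in wild type and at 95.9, 105, 101 and 100.1 CPM in EoE33. Both groups were tight and did not overlap. The rise was 2.66-fold, from 37.7 ± 2.64 to 100.5 ± 3.70 CPM (n = 4 each, SD; log2 fold change 1.41 ± 0.07 SE; edgeR adjusted p = 7.84e-07). Per exon length, Il4ra was at 0.366, 0.258, 0.330 and 0.407 times the level of Il13ra1 in the wild type libraries and at 1.44, 2.40, 2.17 and 2.35 times that level in the EoE33 libraries. In wild type Il13ra1 was the more abundant transcript in all 4 libraries, and in EoE33 Il4ra was. The ratio was 6.10-fold higher in EoE33, a difference of 2.61 in the log2 ratio of counts (exact permutation p = 0.0286, adjusted p = 0.0357).

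Il2rg, the common gamma chain gene, was at 3.14, 1.45, 4.56 and 7.23 CPM in wild type and at 10.1, 10.4, 10.6 and 8.58 CPM in EoE33. The wild type libraries spread widely and the EoE33 libraries did not, and the highest wild type library, replicate 4, came close to the lowest EoE33 library. The means were 4.09 ± 2.45 and 9.90 ± 0.906 CPM (SD, n = 4 each), a 2.41-fold rise (log2 fold change 1.27 ± 0.39 SE; edgeR adjusted p = 0.0195). The call was lost without wild type replicate 1 (edgeR adjusted p = 0.0547), without wild type replicates 1 and 3 together (0.12) and with no filter on low counts (0.0516). Of the windows of 150 bases in the longest Il2rg transcript, 38.2% also occur in Gm20489, a gene model with 1 count over all 8 libraries, so reads of Il2rg may be shared with it or left uncounted.

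Leukocyte markers were set beside Il2rg. The pan-leukocyte markers Ptprc, Laptm5, Cd53 and Coro1a rose, though Laptm5 (edgeR adjusted p = 0.0332) lost its call without wild type replicate 1 or 2 or EoE33 replicate 1, 3 or 4. Their summed level was 60.9, 63.8, 107 and 130.1 CPM in wild type replicates 1 to 4 and 185, 209, 254 and 194 CPM in the EoE33 libraries. The highest wild type library was replicate 4 for both, but the lowest was replicate 2 for Il2rg and replicate 1 for the markers. The log2 ratio of Il2rg to Ptprc counts was -2.61 ± 0.522 in wild type against -2.56 ± 0.167 in EoE33 (SD, n = 4 each). It differed by 0.05, less than the spread between replicates (exact permutation p = 0.943). Wild type replicate 2 had the lowest ratio, at -3.36, and without it the difference was -0.20. The part of leukocytes in the level of Il2rg was not tested. The ratio of Il4ra to Il2rg was 5.79-fold higher in EoE33, a log2 difference of 2.53 (exact permutation p = 0.0286, adjusted p = 0.0357). Per exon length Il4ra stood at 1.23 to 4.57 times Il2rg in wild type and at 8.81 to 17.7 times in EoE33. With the lengths of the longest transcripts these values would be lower, and the side of 1 of the lowest can depend on this choice.

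Il13ra2, the decoy receptor gene, had the largest fold change of the 9 and was nearly silent in wild type. Its counts were 0, 2, 0 and 4 in wild type replicates 1 to 4 and 78, 210, 127 and 79 in EoE33 replicates 1 to 4. All EoE33 libraries were far above wild type, and replicate 2 was well above the other 3. The level was 0.0647 ± 0.0821 CPM in wild type against 6.35 ± 4.02 CPM in EoE33 (SD, n = 4 each). The log2 fold change was 6.50 (SE 0.74, edgeR adjusted p = 8.83e-05), place 83 from the largest rise down. It was 7.52 without wild type replicate 4, which holds 4 of the 6 wild type counts, and 5.54 without wild type replicates 1 and 3 together. Per exon length Il13ra2 stayed well under the signalling chain Il13ra1: in the EoE33 libraries it was at 0.0631, 0.190, 0.0883 and 0.0640 times that level. In wild type it was at 0, 0.00358, 0 and 0.00819 times. The log2 ratio of the 2 genes rose by 5.25 (exact permutation p = 0.0286, adjusted p = 0.0357), or by 3.83 without wild type replicates 1 and 3 together. Its size depends on the value added to the counts, since 2 wild type libraries had 0 counts of Il13ra2: it was 6.50 with 0.1 added and 4.00 with 2 added, with the same p.

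**Figure D2:**
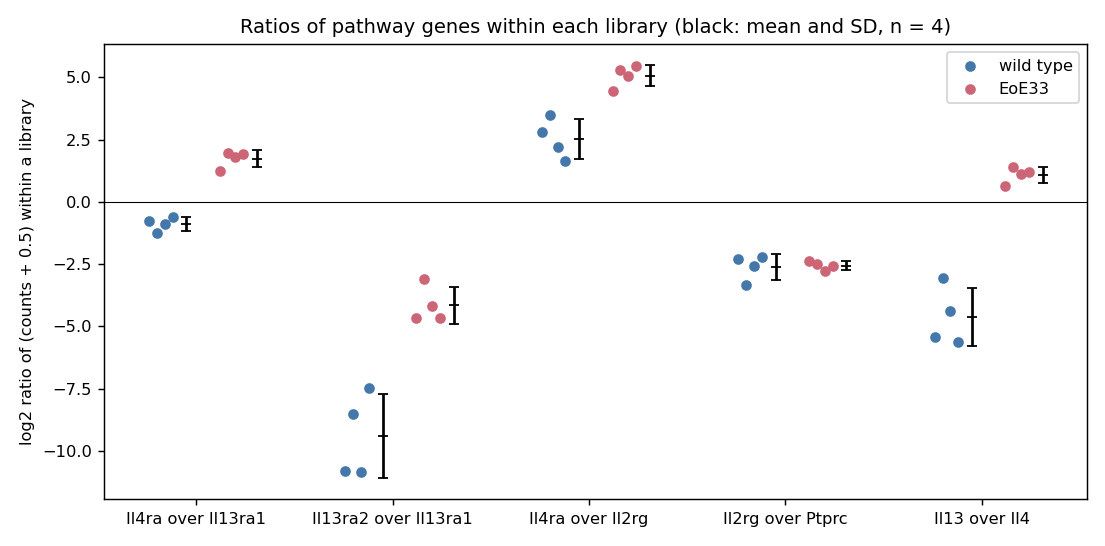
Log2 ratio of counts, with 0.5 added to each, for 5 pairs of genes within each library (one point per library, with the mean and SD in black). The groups are apart for Il4ra over Il13ra1, Il13ra2 over Il13ra1, Il4ra over Il2rg and Il13 over Il4, and overlap for Il2rg over Ptprc, where the means differ by 0.05.

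Markers of epithelial, stromal and other cells also differed between the groups, as 63.4% of all genes tested did. The basal keratinocyte markers Krt5, Krt14, Trp63 and Sox2 summed to 2095 to 3058 CPM in wild type and to 14255 to 17504 CPM in EoE33, and all 4 rose. The suprabasal markers all fell, from 52507 to 92446 CPM in wild type to 14295 to 34689 CPM in EoE33. Of 5 fibroblast markers 4 fell, with sums of 2023 to 2496 CPM against 1056 to 1450 CPM, and all 4 skeletal muscle markers fell, with sums of 17301 to 19348 CPM against 4943 to 6695 CPM. Eosinophil markers were near 0 in wild type, with sums of 0.132 to 0.507 CPM against 6.84 to 11.9 CPM, and the 3 of 4 tested rose. These 3 passed the filter on low counts only through EoE33, so a rise was the only call possible. The 3 smooth muscle markers, of which 2 fell, had overlapping sums of 792 to 3181 CPM and 838 to 977 CPM. Only 1 of them was called without wild type replicate 1 or 4 or any 1 EoE33 library, and 3 without wild type replicate 3. The macrophage markers Csf1r, Adgre1, Cd68 and Mrc1 rose, with sums of 112 to 184 CPM against 223 to 298 CPM, but only Cd68 and Mrc1 were called without wild type replicate 1 or EoE33 replicate 3 or 4. The part of these shifts in the levels of Il4ra, Il13ra1 and Il13ra2 was not tested.

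Stat6, the transcription factor that both receptors activate, did not pass. It was at 154, 159, 162 and 148 CPM in wild type and at 169, 161, 154 and 179 CPM in EoE33, and the groups overlapped. The means were 156 ± 6.22 and 166 ± 10.6 CPM (SD, n = 4 each), with a log2 fold change of 0.09 (95% interval -0.06 to 0.24, edgeR adjusted p = 0.241). The interval excludes a change of the size estimated for any receptor chain gene of the set. With library sizes that leave out Chil4, the value was 0.19 and passed (edgeR adjusted p = 0.0111). Activation of STAT6 is by phosphorylation, which transcript counts do not measure. Stat6 shares 40 exon bases with Nab2 on the opposite strand, which had 3923 counts over the 8 libraries.

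The feedback inhibitors differed. Socs1, which binds JAK kinases and blocks them, was at 2.16, 2.02, 1.90 and 1.88 CPM in wild type and at 12.6, 13.2, 19.2 and 18.55 CPM in EoE33. The wild type libraries were nearly equal, and the lowest EoE33 library was well above them. The rise was 7.97-fold (log2 fold change 2.99 ± 0.17 SE; edgeR adjusted p = 1.62e-06).

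Cish, an inhibitor best known as a target of STAT5, was at 27.2, 27.5, 46.5 and 17.0 CPM in wild type and at 51.9, 34.7, 51.4 and 60.2 CPM in EoE33. Wild type replicate 3, the library with airway transcripts, lay above EoE33 replicate 2, so the groups overlapped; the part of the airway transcripts was not tested. The log2 fold change was 0.75 (SE 0.30, 95% interval 0.06 to 1.44), and it did not pass (edgeR adjusted p = 0.0571). The call was made without wild type replicate 3, where the log2 fold change was 1.05 (edgeR adjusted p = 0.00548), without EoE33 replicate 2 (0.89, 0.0383), with DESeq2 (0.0144) and with limma-voom (0.0372). Cish shares exon bases with 2 gene models on the opposite strand, which together had 19 counts.

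**Figure D3:**
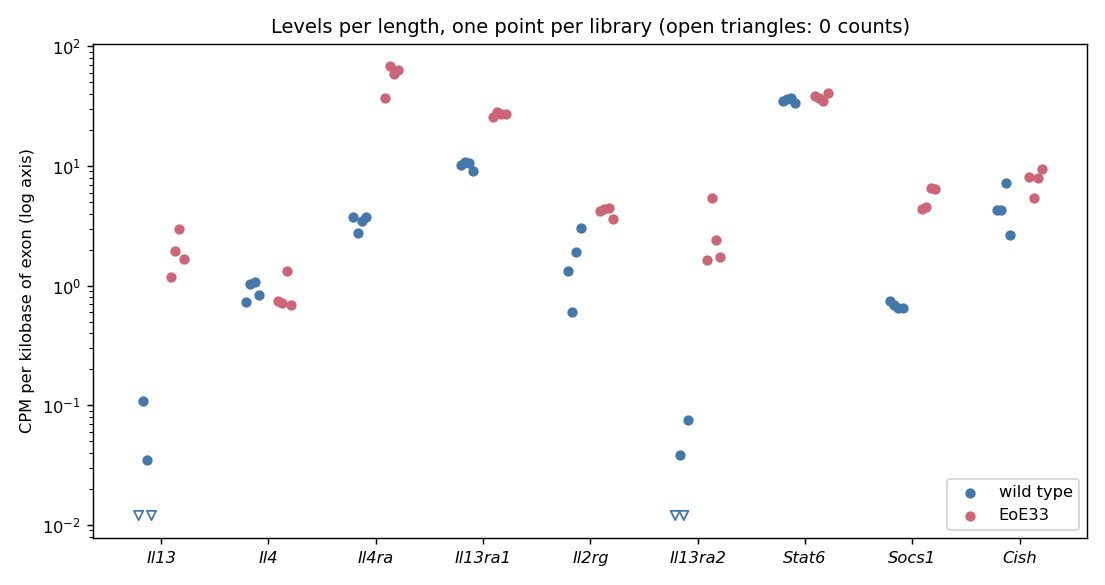
Level of each gene per exon length, in CPM per kilobase of exon on a log axis, one point per library (open triangles stand for 0 counts). Stat6 leads in wild type at 35.3 CPM per kilobase, and Il4ra leads in EoE33 at 56.8 CPM per kilobase.

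Levels per exon length put the 9 genes in a different order in the groups. The exon lengths of Il4, Il4ra, Il2rg, Stat6 and Cish exceed their longest transcripts. They are 1227, 6002, 2387, 4402 and 6419 bases, against 605, 5256, 1670, 3775 and 4697 bases. Close places in the order can therefore depend on the length used. In wild type Stat6 was highest at 35.3 ± 1.41 CPM per kilobase of exon, followed by Il13ra1 at 10.2 ± 0.712, Cish at 4.60 ± 1.92, Il4ra at 3.43 ± 0.450 and Il2rg at 1.72 ± 1.03 (SD, n = 4). Il4 at 0.917 ± 0.164, Socs1 at 0.684 ± 0.0442, Il13 at 0.0361 ± 0.0515 and Il13ra2 at 0.0284 ± 0.0360 CPM per kilobase were lowest. Ranges of neighbours in this order overlapped from Cish to Socs1 and for Il13 and Il13ra2. In EoE33 the order was Il4ra at 56.8 ± 13.6, Stat6 at 37.7 ± 2.41, Il13ra1 at 27.1 ± 0.998, Cish at 7.72 ± 1.67 and Socs1 at 5.47 ± 1.19 CPM per kilobase (SD, n = 4). Il2rg at 4.15 ± 0.380, Il13ra2 at 2.78 ± 1.76, Il13 at 1.94 ± 0.754 and Il4 at 0.870 ± 0.311 followed. There only Stat6 and Il13ra1, and Il13ra1 and Cish, were neighbours whose ranges did not overlap.

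The EoE33 libraries were not equally high. Replicate 3 was the highest EoE33 library for 4 of the 9 genes (Il13, Il4, Il2rg and Socs1) and replicate 2 for 3 (Il4ra, Il13ra1 and Il13ra2). Replicate 4 was the highest for 2 (Stat6 and Cish) and replicate 1 for none. Over all genes tested, replicates 1 to 4 were the highest for 24.2%, 30.5%, 19.9% and 25.3%. Some of these places rest on small gaps. In EoE33 replicates 2 and 3, Il2rg was at 10.4 and 10.6 CPM and Il13ra1 at 105 and 101 CPM. Whether the genes share a library profile within EoE33 was not tested.

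Kinases, other STATs, adaptors and inhibitors of the pathway made up a list of 27 genes, of which 17 rose and 7 fell (median log2 fold change 0.34, beside -0.01 over all genes tested). Of the 27, 63% rose and 25.9% fell, beside 31.3% and 32.1% of all genes tested. This list too was chosen with earlier results of these data known, so the shares are not independent evidence of a direction. Socs4 rose by 0.23 on the log2 scale (edgeR adjusted p = 0.0325). Its call was lost without wild type replicate 2, 3 or 4 or EoE33 replicate 1 or 3. All 4 JAK genes rose: Jak2 2.24-fold, Jak3 2.04-fold, Jak1 1.29-fold and Tyk2 1.16-fold (edgeR adjusted p = 6.20e-05, 0.000235, 0.000739 and 0.0137). JAK3 binds the common gamma chain, JAK1 the IL-4 receptor alpha chain, and TYK2 and JAK2 the partner chain of the type II receptor. The rise of Tyk2 did not pass with library size as the only scaling. Stat4 and Stat3 rose 3.84-fold and 1.27-fold, and Stat4 had a low level of 0.502 ± 0.302 CPM in wild type (SD, n = 4). Stat5b and Stat5a fell by 0.70 and 0.48 on the log2 scale (edgeR adjusted p = 6.04e-05 and 0.0204). The fall of Stat5a was lost without wild type replicate 4 (edgeR adjusted p = 0.0537) and with library sizes that leave out Chil4.

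Of the adaptors that carry the IL-4 signal to PI3 kinase, Irs1 was 2.54-fold lower, with 10.4 ± 1.76 CPM in wild type against 4.09 ± 1.06 CPM in EoE33 (SD, n = 4 each; edgeR adjusted p = 0.000366). Irs2 did not pass, at a log2 fold change of 0.24 (95% interval -0.03 to 0.52, edgeR adjusted p = 0.106). Socs3, an inhibitor best known for IL-6 family signals, rose 5.23-fold, from a mean of 26.04 ± 6.36 to one of 136 ± 25.1 CPM (SD, n = 4 each, edgeR adjusted p = 1.46e-05). Per library it was at 23.3, 28.2, 33.8 and 19.0 CPM in wild type and at 119, 110.3, 157 and 159 CPM in EoE33, with no overlap.

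**Figure D4:**
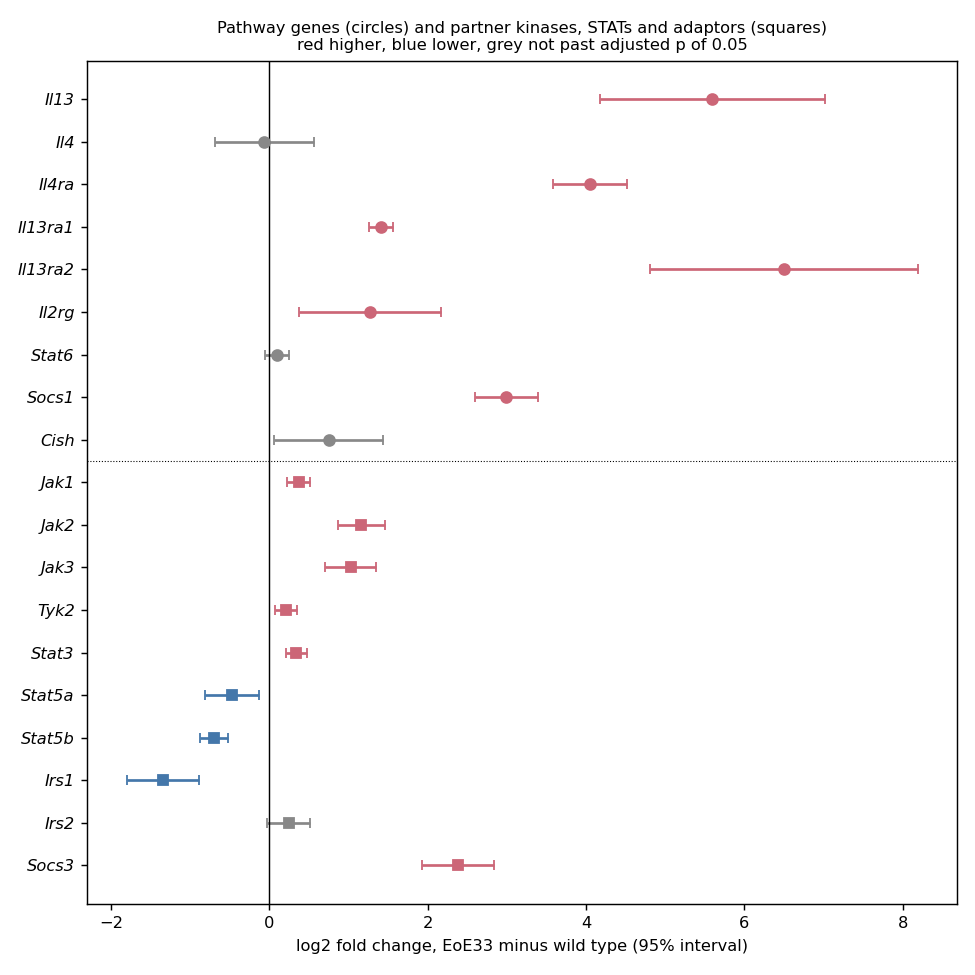
Log2 fold change of EoE33 over wild type with its 95% interval for the 9 genes (circles) and for kinases, STATs, adaptors and Socs3 (squares). Il13ra2 and Il13 lie farthest to the right with the widest intervals. The intervals of Il4, Stat6 and Irs2 span 0, and Irs1, Stat5b and Stat5a lie to the left.

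Of 11 other genes of the common gamma chain family 8 were tested, 3 rose and 1 fell (median log2 fold change 0.92). The 4 called are 50% of those tested, below the 63.4% of all genes, and the share that rose, 37.5%, is near the 31.3% of all genes. Il7r, the IL-7 receptor gene of lymphocytes, rose 4.67-fold, from 1.85 ± 0.840 to 8.66 ± 0.787 CPM (SD, n = 4 each; edgeR adjusted p = 9.36e-05). Il9r and Il21r passed narrowly (edgeR adjusted p = 0.0286 and 0.0486). The call for Il9r was lost without wild type replicate 1, 2 or 4 or EoE33 replicate 2 or 3 (edgeR adjusted p = 0.0641 to 0.0741), at a log2 fold change of 2.07 from all libraries and 2.73 when wild type replicate 3 was left out. The call for Il21r was lost without any 1 library except wild type replicate 4 (0.0518 to 0.114). Il15, a cytokine gene for natural killer and memory T cells, was 2.18-fold lower (edgeR adjusted p = 0.00419). Il2, Il9 and Il21 had too few counts to test.

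Of 14 other type 2 cytokine, alarmin and receptor genes 10 were tested and 8 rose (median log2 fold change 1.86). That is 80% of those tested, where 31.3% of all genes tested rose. The list was chosen with earlier results of these data known, so the count is not independent evidence of a direction. Il17rb and Il1rl1 are also among the markers of group 2 innate lymphoid and Th2 cells above. Areg, an epidermal growth factor family gene, rose 23.3-fold, and the rise of Csf2rb, whose product is the beta chain common to several eosinophil growth factor receptors, was 5.84-fold. Il31ra, Il5ra and Il17rb had log2 fold changes of 3.60, 2.32 and 1.93. The value for Il31ra was 2.85 and that for Il17rb 1.23 without EoE33 replicate 2, and that for Il5ra was 3.05 without wild type replicate 3. Il1rl1, the gene of the IL-33 receptor, rose by 1.79 on the log2 scale (edgeR adjusted p = 0.00823), and the alarmin gene Tslp did not pass (0.12, edgeR adjusted p = 0.713).

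Known responders to these cytokines made up a list of 26 genes, of which 21 were tested, 17 rose and 1 fell (median log2 fold change 3.04). These are 81% and 4.76% of those tested, beside 31.3% and 32.1% of all genes tested. Leaving out 1 library gave 16 to 18 genes called, as Ccl17, Clec10a or both lost the call in some of these fits. Some genes of the list were already known to have moved in these libraries, so the count is not independent evidence of a direction. Slc26a4, the gene of the anion exchanger pendrin, Chil4 and Chil3, chitinase-like genes, Ccl8, a chemokine gene, and Alox15, a lipoxygenase gene, had the largest changes, with log2 fold changes of 9.16, 8.86, 6.88, 7.36 and 6.93. The value for Alox15 was 7.74 without wild type replicate 3. Chil4 was at 159 to 187 CPM in the wild type libraries and at 71637, 113747, 66317 and 80754 CPM in EoE33 replicates 1 to 4. EoE33 replicate 2, the highest library for the receptor chain genes Il4ra, Il13ra1 and Il13ra2, was also the highest for Chil4, Alox15 and Slc26a4, at 113747, 3840 and 142 CPM. It was the highest EoE33 library for 30.5% of all genes tested, the largest share of the group. The other responders that rose, Chil3 and Ccl8 among them, are not given by library here. A link between receptor and responder genes across the EoE33 libraries was not tested. Tgm2, a transglutaminase gene, was the one that fell, by 0.76 on the log2 scale (edgeR adjusted p = 0.000197). Postn, the periostin gene, did not pass, at a log2 fold change of -0.03 (95% interval -0.37 to 0.30).

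**Figure D5:**
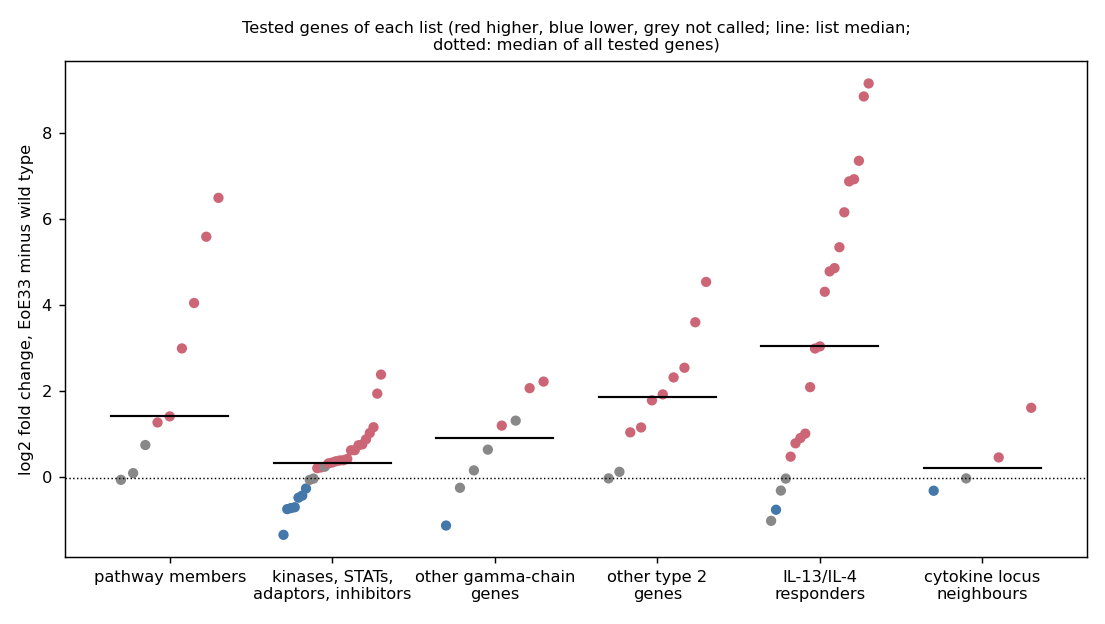
Log2 fold change of EoE33 over wild type for each tested gene of the 9 members and of 5 related lists, sorted within each list, with the list's median as a line and the median of all genes tested as a dotted line. The medians are 1.41 for the members, 0.34 for kinases, STATs, adaptors and inhibitors, 0.92 for other gamma chain genes, 1.86 for other type 2 genes and 3.04 for responders.

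Some genes had library profiles very like those of members, by Pearson's r of log2 CPM over the 8 libraries among 14277 other protein-coding genes. The closest to Il13 was Mta2, a chromatin remodelling gene, with r = 0.998 and a log2 fold change of 0.66. The closest to Il4ra was Capzb, an actin capping gene (r = 0.997, log2 fold change 0.49), and the closest to Il13ra2 was Dcp1a, an mRNA decapping gene (r = 0.998, log2 fold change 0.62). For Socs1 it was Ap3b1, an adaptor protein gene (r = 0.997, log2 fold change 0.37). The other genes among the closest 3 were Ttc9c and Bub1b for Il13, Trim39 and St3gal4 for Il4ra, E2f7 and Rassf6 for Il13ra2, and Cdh6 and Rrp1 for Socs1. St3gal4, at a log2 fold change of 4.56, and Cdh6 had larger changes than the members they resembled, and the rest had smaller ones. The libraries form 2 groups, so r records mostly the gap between them.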

How the data were processed

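PolyA RNA of whole esophagi from 4 wild type and 4 EoE33 mice was sequenced paired-end, per the labels' protocols. The authors deposited raw counts per Ensembl gene. GRCm38, Trimmomatic 0.36, STAR 2.5.2b, Subread 1.5.2 and featureCounts are named, without roles, per the submitters' processing notes. The use of strand is not given in the sources used here, so reads of overlapping genes cannot be told apart. Columns were assigned to mice by the spreadsheet letter in each sample's description. GENCODE M21 matched 49056 of 49315 identifiers.

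Genes were filtered with filterByExpr, scaled by TMM and tested with edgeR 4.0.16 (glmQLFit, robust = TRUE; R 4.3.3), with Benjamini-Hochberg adjustment over 16760 genes. A gene with too few counts in wild type can pass this filter through EoE33 alone, and only a rise can then be called. The script was tested on simulated counts of 16140 genes, with 50 genes changed at each of 1.5-fold, 2-fold, 4-fold and 0.25-fold. It recovered 32%, 86%, 94% and 96% of these, with 6 false calls among 160. Few genes changed there, unlike in these data, so the simulation did not test the scaling. CPM use TMM-scaled library sizes, and 3 counts in a library are 0.127 to 0.175 CPM. Standard errors and intervals were derived from the F statistic. Ratios were tested by two-sided exact permutation. The p-values measure the spread between these 8 libraries. Alternatives were other scalings, DESeq2 1.42.0, limma-voom (limma 3.58.1), other filters, robust = FALSE, a replicate term, leaving out libraries and, for ratios, 0.1 or 2 added to the counts.

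The members and lists were chosen with earlier results of these data known. Named genes were the 9 members, the 5 largest called changes per pathway list, the locus neighbours, partner kinases and STATs, and the genes with the most similar profiles. Tgm2, Postn, Il1rl1 and Tslp were picked after their values were seen. So were Ccl17, Clec10a, Socs4 and the single marker genes given with values or calls of their own.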

Additional observations from a re-analysis of the deposited data

Results flagged for a closer look

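Among the EoE33 libraries, replicate 3 stood apart in the level of Il4. It was at 1.64 CPM, where the other 3 EoE33 libraries lay between 0.848 and 0.906 CPM. The gap to the nearest library was 0.926 of the group's range, above Dixon's 95% limit for 4 samples. The value rests on 38 counts, against 15 to 19 in the other 3. The same library was also the highest of the 4 for Il13, for the summed T cell markers (14.3 CPM, others 9.12 to 13.01) and for the summed mast cell markers (125 CPM, others 61.6 to 95.6), and the part of these cells was not tested. The check was made in 28 groups of 4, and chance alone flags about 1 in 20.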

How the results depend on the processing

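Il13, Il4ra, Il13ra1, Il13ra2 and Socs1 kept their direction and their call under all 19 alternatives to the fit. The number of all genes called lay between 8827 and 10773. The sign of Il4, which never passed, turned with library sizes that leave out Chil4 (0.047), and leaving out 1 library gave -0.35 to 0.035. Il2rg had log2 fold changes of 1.29 with no filter on low counts and 1.18 without wild type replicates 1 and 3 together, both not called, and 1.01 to 1.69 leaving out 1 library. Stat6 passed only with library sizes that leave out Chil4 (0.19), a scaling that shifts the median of all genes by 0.10 on the log2 scale. Cish passed with that scaling (0.86), DESeq2 (0.76), limma-voom (0.81), robust = FALSE (0.75) and without wild type replicates 1 and 3 together (1.15), and leaving out 1 library gave 0.55 to 1.05. The causes were not tested. The log2 ratio differences without wild type replicates 1 and 3 together were 2.66 for Il4ra over Il13ra1, 3.83 for Il13ra2 over Il13ra1, 2.51 for Il4ra over Il2rg and 5.43 for Il13 over Il4. There 2 libraries against 4 cannot reach the threshold (adjusted p = 0.0833). Il2rg over Ptprc gave -0.20 to 0.18 leaving out 1 library. Other gamma chain genes called numbered 2 to 5 leaving out 1 library. With 0.1 or 2 added to the counts the 5 ratios kept their direction and their side of the threshold.

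Deviations of same-numbered libraries from their group means correlated at 0.104, -0.122, 0.0555 and -0.136. Those of different-numbered libraries lay between -0.118 and 0.152. The check gave no sign that the replicate numbers pair the mice, but it cannot show that they do not. With the replicate block 10056 genes were called and no call among the 9 genes changed. With pairing, the ratio differences 2.61, 5.25, 2.53 and 5.72 had an adjusted sign-flip p of 0.156, since 4 pairs cannot go below a raw p of 0.125. Depth limits Il13 and Il13ra2 in wild type, with 4 and 6 counts in all, and Il4 in both groups.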
